A study of Mus musculus with 58 samples.

Results

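The genes described here are 10 negative regulators of MAP kinase signalling: the phosphatase genes Dusp1, Dusp4, Dusp5, Dusp6 and Dusp14, the Sprouty genes Spry1, Spry2 and Spry4, and the Spred genes Spred1 and Spred2. They were taken by symbol from a table of 18088 genes, and the choice was made with earlier results of these data known. Counts of members set beside shares of all genes below are therefore descriptions and not tests. All 10 had a mean normalised count of at least 10 and were therefore among the 16669 genes tested. RNA had been sequenced from prefrontal cortex of C57BL/6J mice on postnatal day 25, after 3 weeks (postnatal day 3 to 24) in which pups received fluoxetine, lithium or vehicle through the mother's milk. The labels give each mouse as heterozygous (HT) or wild-type (WT) for Kmt5b, which encodes a histone H4 lysine methyltransferase. There were 10 libraries each of HT fluoxetine, HT lithium, HT vehicle, WT fluoxetine and WT vehicle and 8 of WT lithium, with females and males in equal numbers. Fluoxetine is a serotonin reuptake inhibitor and lithium a mood stabiliser, and neither the doses nor the litters are in the labels. Since pups of a litter share their mother's treatment, the p-values measure the spread between these libraries and not that between litters.

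Growth factor and neurotransmitter receptors activate Ras and, through Raf and MEK, the MAP kinases ERK1 and ERK2. Active ERK phosphorylates transcription factors that switch on immediate early genes, and among the genes it induces are its own inhibitors. Dual-specificity phosphatases remove the activating phosphates from ERK, JNK or p38, Sprouty proteins restrain signalling from receptor tyrosine kinases, and Spred proteins bring the Ras inactivator neurofibromin to the membrane. In cortical neurons several of these genes are known as activity-dependent transcripts.

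Recovered depth was 23.5 to 38.6 M reads per library. Kmt5b stood at 1734 ± 98.3 normalised counts in libraries labelled HT (SD, n = 30) and 1654 ± 137 in those labelled WT (SD, n = 28), so its RNA was not lower in libraries labelled HT. Whether the counted sequence lies outside the altered part of the gene is not given in the sources used here, and HT and WT stand for the labels throughout. Cortical excitatory neuron markers were present in all libraries. The dissections differed in how much olfactory bulb RNA they held: the mean log2 level of 4 bulb markers (Cdhr1, Doc2g, Eomes and Tbx21) ran from 3.6 to 10.6, with a gap between 5.01 and 6.77. Below that gap lay 10 libraries, 3 of HT fluoxetine, 3 of HT lithium, 1 of WT fluoxetine and 3 of WT vehicle, while HT vehicle and WT lithium had 0. In 2 libraries (HT fluoxetine female 2 and WT vehicle female 5) striatal markers stood above a mean log2 level of 9. Libraries also differed in how their values followed transcript length: the slope of a library's log2 deviations on log2 exon length had a median of 0.00176 in HT fluoxetine (-0.048 to 0.0324), 0.0106 in HT lithium (-0.0255 to 0.0317), -0.0104 in HT vehicle (-0.0772 to 0.015), 0.0212 in WT fluoxetine (-0.00525 to 0.0509), 0.0148 in WT lithium (-0.048 to 0.0364) and -0.0333 in WT vehicle (-0.0589 to 0.0552). Counts of members are therefore also given without these libraries and with this slope as a covariate, both chosen after seeing the data. In bulk tissue, fewer cells of a type and less RNA per cell cannot be told apart.

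Per kilobase of exon, and averaged over all 58 libraries, the members fell into a higher and a lower range. Dusp14 had 923 ± 111 normalised counts per kb (SD, n = 58), Spred1 823 ± 92.1, Spred2 701 ± 114, Dusp6 695 ± 155 and Spry2 464 ± 42.2. Dusp1 had 221 ± 68.2, Dusp5 116 ± 31.2, Spry4 83.8 ± 17.9, Dusp4 79.1 ± 20.2 and Spry1 74.6 ± 8.85. Dusp14 thus lay at the 92.6th percentile of all genes in the table and Spry1 at the 45.0th. When the 6 groups of genotype and treatment were ordered by their mean for each member, 45 of the 50 pairs of neighbours differed by less than the larger of their standard deviations. Exceptions were the step from WT vehicle to WT lithium for Dusp1, from HT lithium to HT vehicle for Dusp4, from HT lithium to WT vehicle and from HT vehicle to HT fluoxetine for Spry4, and from HT lithium to WT fluoxetine for Spred2.

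The promoters of Dusp1, Dusp5 and Dusp6 are shown because these are the ERK phosphatases with the largest differences under fluoxetine. The signal-responsive elements they hold were also a reason for the choice, so their presence there is no independent result. In the RefSeq table of 32851 promoters (GRCm38.p6, 250 bases before to 50 after each start), 8 of the 10 members had an entry. Motifs were searched on both strands: the cyclic AMP response element (CRE, TGACGTCA), its shorter core TGACG, the AP-1 element TGANTCA, the CArG box that serum response factor binds, and the ETS core GGAA. The core TGACG lies within the CRE, so each CRE match also counts as a match of the core. In the 200 bases from 250 to 51 before the start, capitals mark the CRE and its core in Dusp1 (chr17:26508523-26508722, minus strand), CArG boxes and the core TGACG in Dusp5 (chr19:53528895-53529094, plus strand) and ETS cores in Dusp6 (chr10:99262981-99263180, plus strand).
Dusp1: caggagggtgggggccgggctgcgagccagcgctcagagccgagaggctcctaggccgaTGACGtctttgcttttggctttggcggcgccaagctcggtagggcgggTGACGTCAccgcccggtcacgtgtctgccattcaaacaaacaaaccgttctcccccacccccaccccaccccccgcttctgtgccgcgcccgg
Dusp5: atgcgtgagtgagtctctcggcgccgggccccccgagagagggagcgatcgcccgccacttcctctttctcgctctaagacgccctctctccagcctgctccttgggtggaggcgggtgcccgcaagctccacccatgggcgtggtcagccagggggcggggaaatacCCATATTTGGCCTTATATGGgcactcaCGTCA
Dusp6: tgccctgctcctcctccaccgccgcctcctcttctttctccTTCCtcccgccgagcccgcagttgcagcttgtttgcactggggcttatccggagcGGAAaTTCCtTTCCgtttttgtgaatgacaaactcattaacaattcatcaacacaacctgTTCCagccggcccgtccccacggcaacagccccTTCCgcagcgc
Dusp1 alone of the 8 members held a full CRE, which begins at position -143 and occurs in 1.79% of all promoters. Dusp5 alone held CArG boxes, a pair that begins at -82 and -72; 1.63% of all promoters have at least 1 and 0.0183% at least 2. Dusp6 had 6 ETS cores, a number reached by 15.7% of promoters, and at least 1 such core is found in 96% of them and in all 8 members. Spred2 had more such cores than Dusp6, with 7. The core TGACG was found in Dusp1, Dusp5 and Spred2 and in 20.8% of all promoters. AP-1 elements were found in 0 of 8 members and 7.81% of all promoters, and these letters say nothing of binding.

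The first comparison asks what fluoxetine did to these genes in each genotype. In HT mice 3 of the 10 members fell and 0 rose: Dusp5, Dusp1 and Spry4. In WT mice 5 fell and 0 rose: Dusp1, Dusp6, Spry4, Spry2 and Dusp14. By limma with Benjamini-Hochberg adjustment over all genes, 5.96% of genes fell and 6.84% rose in HT, and 3.41% fell and 3.98% rose in WT. The members' median log2 difference, on the log2(value + 1) scale used throughout, was -0.19 in HT and -0.20 in WT, while that of all genes was -0.00316 in HT and -0.000913 in WT. Without the 10 libraries low in olfactory bulb markers 6 members passed in HT and 5 in WT, and without the 2 libraries high in striatal markers 1 passed in HT and 5 in WT. With the bulb level added as a covariate 6 passed in each genotype. The calls over all genes then numbered 4088 in HT, against 2134 without it, and 1186 in WT, against 1232. With the exon length slope added 4 passed in HT and 3 in WT, where Dusp14 and Spry2 were lost and the calls over all genes numbered 273, against 1232 without it. The part of that slope in the WT values was not tested. The mitochondrial share of the normalised counts was 7.97% ± 0.657 in HT fluoxetine and 6.75% ± 0.66 in HT vehicle, and 7.39% ± 0.543 in WT fluoxetine and 7.90% ± 0.70 in WT vehicle (SD, n = 10 each), and its part in the members' values was not tested. The HT count was 1 without HT fluoxetine female 2, HT fluoxetine male 5, HT vehicle female 1, HT vehicle male 4 or HT vehicle male 5, 5 without HT fluoxetine female 4 or HT vehicle male 2, and 6 without HT fluoxetine male 3. The WT count was 3 without WT vehicle male 5.

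**Figure D1:**
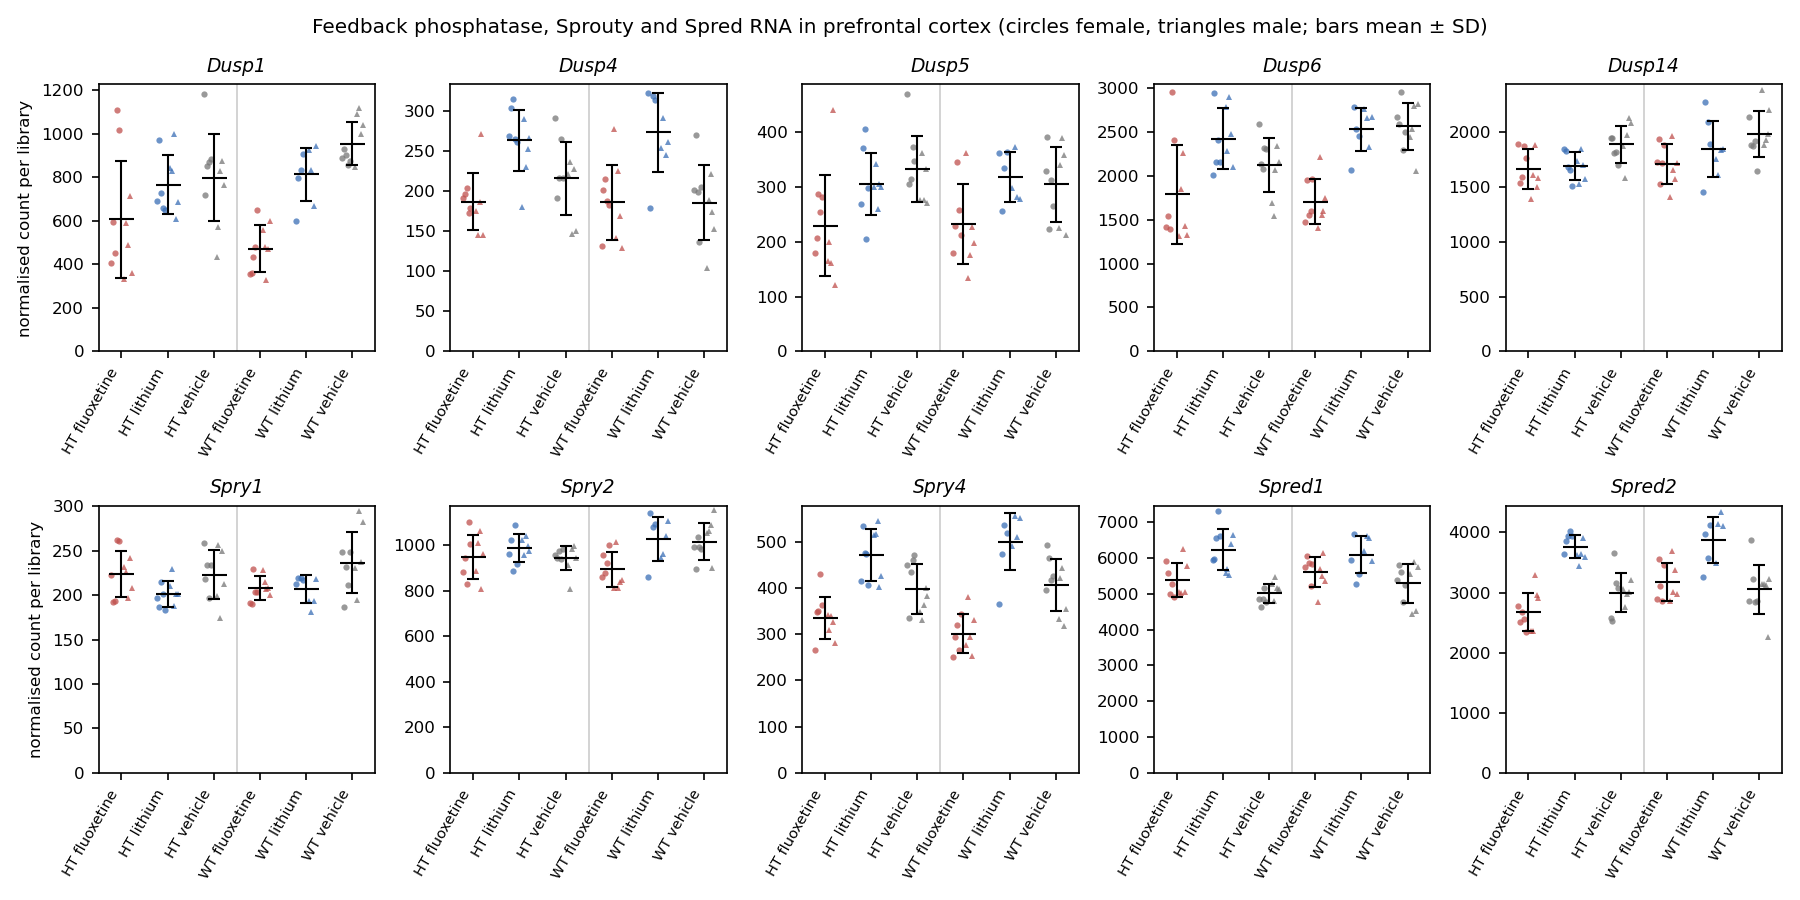
Normalised count of each member (vertical axis, 1 panel per gene, starting at 0) in every library, by genotype and treatment (horizontal axis); circles are females, triangles males, and black bars the mean ± SD of 10 libraries (8 for WT lithium). The WT fluoxetine libraries of Dusp1 lie between 328 and 651, all below the WT vehicle libraries, and the mean of Spry4 is lowest with fluoxetine and highest with lithium in each genotype.

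Dusp1 encodes an inducible nuclear phosphatase of ERK, p38 and JNK and lies on chromosome 17 (26505590 to 26562128, minus strand, GRCm38). In HT mice its normalised counts ran from 333 through a median of 540 to 1108 with fluoxetine, against 435, 838 and 1182 with vehicle. The HT groups overlapped, with 3 of 10 HT fluoxetine libraries below the lowest HT vehicle library. HT fluoxetine female 4 and female 5 stood at 1108 and 1016, above the HT vehicle median. Dusp1 fell by 0.47 in HT (SE 0.149, adjusted p = 0.0314). In WT mice the lowest, median and highest counts were 328, 474 and 651 with fluoxetine, against 845, 916 and 1115 with vehicle. All 10 WT fluoxetine libraries lay below the lowest WT vehicle library. The WT difference was -1.04 (SE 0.149, adjusted p = 6.08e-06), a fold of 0.486. Adjusted p in HT was 0.0524 to 0.0846 without any 1 of 9 libraries (HT fluoxetine female 1, 2 or 3 or male 1 or 5, HT vehicle female 1 or male 3, 4 or 5), 0.121 with the 2 HT groups fitted alone and 0.0587 without the libraries high in striatal markers. Over the alternatives other than leaving out 1 library it ran from 0.0154 to 0.121, and the ranges over alternatives below are of the same kind.

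Dusp6 encodes a cytoplasmic phosphatase selective for ERK (chromosome 10, 99263231 to 99267489, plus strand). HT libraries ran from 1309 through a median of 1481 to 2951 with fluoxetine, against 1545, 2142 and 2588 with vehicle. The HT groups overlapped, with HT fluoxetine female 4 above all HT vehicle libraries. The HT difference was -0.29 (SE 0.106) and missed the threshold at adjusted p = 0.0613. WT libraries ran from 1404 through 1597 to 2219 with fluoxetine, against 2051, 2560 and 2953 with vehicle. Only the top of the WT fluoxetine range reached into the WT vehicle range. Dusp6 fell by 0.59 in WT (SE 0.106, adjusted p = 0.000203), a fold of 0.662. In HT it passed with the bulb level added as a covariate (-0.40, adjusted p = 0.002) and without the 10 libraries low in that level (-0.41, adjusted p = 0.00694), the range over alternatives being 0.002 to 0.198. Without HT fluoxetine female 4, female 5, male 2 or male 3, or HT vehicle male 2, it also passed, at differences of -0.37, -0.34, -0.32, -0.35 and -0.33.

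Dusp5, a nuclear phosphatase selective for ERK, is on chromosome 19 (53529109 to 53542431, plus strand). With fluoxetine HT libraries ran from 121 through a median of 203 to 440, against 270, 324 and 469 with vehicle. HT fluoxetine male 4, at 440, stood apart from the other HT fluoxetine libraries, the next being at 287. Dusp5 fell by 0.61 in HT (SE 0.159, adjusted p = 0.00909), a fold of 0.657. WT libraries ran from 134 through 220 to 361 with fluoxetine, against 213, 321 and 392 with vehicle. In WT 5 of 10 fluoxetine libraries lay below the lowest vehicle library, and the difference of -0.41 (SE 0.159) missed the threshold at adjusted p = 0.0937. It passed there with the bulb level added as a covariate (-0.54, adjusted p = 0.000867) and without the libraries low in that level (-0.53, adjusted p = 0.037), with a range over alternatives of 0.000867 to 0.162. It also passed in WT without WT fluoxetine male 1 (-0.51) or HT fluoxetine male 4 (-0.41), the second of which changes only the estimate of spread.

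Dusp4 and Dusp14 differed less with fluoxetine. Dusp4, an inducible nuclear phosphatase (chromosome 8, 34807297 to 34819894, plus strand), had medians of 183 with fluoxetine and 219 with vehicle in HT, and of 185 with fluoxetine and 194 with vehicle in WT. Its ranges overlapped widely, and the differences were -0.20 in HT (SE 0.134, adjusted p = 0.334) and 0.01 in WT (SE 0.134, adjusted p = 0.972). Dusp14, a small phosphatase without the MAP kinase docking domain (chromosome 11, 84048041 to 84069261, minus strand), ran from 1393 through 1602 to 1896 with fluoxetine in HT, against 1586, 1911 and 2130 with vehicle, and from 1412 through 1719 to 1962 with fluoxetine in WT, against 1650, 1923 and 2386 with vehicle. Both pairs of groups overlapped. Its difference was -0.18 in HT (SE 0.065, adjusted p = 0.0501), which missed the threshold, and Dusp14 fell by 0.21 in WT (SE 0.065, adjusted p = 0.0347). The HT value passed with the bulb level added as a covariate (-0.24, adjusted p = 0.00251), without the low-bulb libraries (-0.24, adjusted p = 0.0207), at a mean of at least 100 (0.0434), with a pseudocount of 10 (0.0497) and in 16 of the 58 fits without 1 library (0.0191 to 0.108 over these 58), in a range over alternatives of 0.00251 to 0.209. The WT value was lost without any 1 of 7 libraries (WT fluoxetine female 3, male 1 or male 4, WT vehicle female 1 or 4 or male 1 or 5), with adjusted p of 0.061 to 0.0858, without the libraries low in olfactory bulb markers (0.0969) and with the exon length slope (-0.10, adjusted p = 0.521), in a range over alternatives of 0.0208 to 0.521.

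Of the Sprouty genes, whose products inhibit growth factor signalling to ERK, Spry4 fell in both genotypes. It lies on chromosome 18 (38586247 to 38601415, minus strand). In HT its counts ran from 266 through a median of 340 to 431 with fluoxetine, against 331, 392 and 471 with vehicle. WT libraries ran from 250 through 294 to 380 with fluoxetine, against 317, 418 and 493.2 with vehicle. The groups overlapped in both genotypes, with most fluoxetine libraries in the lower part of the vehicle range or below it. The log2 difference was -0.24 in HT (SE 0.0805, adjusted p = 0.0364) and -0.43 in WT (SE 0.0805, adjusted p = 0.000385). In HT the value was lost without any 1 of 10 libraries (HT fluoxetine female 1 or 2 or male 2 or 5, HT vehicle female 1, 3, 4 or 5 or male 4 or 5), with adjusted p of 0.0518 to 0.0988. It was also lost by edgeR on 54 libraries (0.0524) and without the libraries high in striatal markers (0.0566), the range over alternatives being 0.00997 to 0.0566.

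Spry2 (chromosome 14, 105891947 to 105896819, minus strand) ran from 810 through 954 to 1104 with fluoxetine in HT, against 810, 952 and 997 with vehicle, and the 2 medians hardly differed. The HT difference was 0.003 (SE 0.053, adjusted p = 0.97). In WT it ran from 811 through 871 to 1017 with fluoxetine, against 894, 1016 and 1156 with vehicle. Spry2 fell there by 0.18 (SE 0.053, adjusted p = 0.0248), a value lost without WT vehicle male 5 (-0.17, adjusted p = 0.0625) and with the exon length slope added (-0.14, adjusted p = 0.258), in a range over alternatives of 0.0184 to 0.258. Spry1 (chromosome 3, 37639947 to 37644598, plus strand) had medians of 224 with fluoxetine and 226 with vehicle in HT, and of 206 with fluoxetine and 234 with vehicle in WT. It did not pass in either genotype (0.004, adjusted p = 0.97 in HT; -0.18, adjusted p = 0.104 in WT), but did in WT without WT vehicle female 2 (-0.21) or WT vehicle male 2 (-0.22). Dusp1, Dusp5 and Spry1 each overlap a gene on the opposite strand (Ergic1, AC137853.2 and Gm42922). The kit was strand-specific per the labels, but whether the counting used the strand is not given in the sources used here, so reads of such pairs may not have been told apart.

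The Spred genes did not pass with fluoxetine. Spred1 (chromosome 2, 117121374 to 117182279, plus strand) had medians of 5155 with fluoxetine and 5004 with vehicle in HT, and of 5728 with fluoxetine and 5470 with vehicle in WT. Its differences were 0.10 in HT (SE 0.0528, adjusted p = 0.211) and 0.09 in WT (SE 0.0528, adjusted p = 0.296). Spred2 (chromosome 11, 19924375 to 20024026, plus strand) had medians of 2620 with fluoxetine and 3035 with vehicle in HT, and of 3059 with fluoxetine and 3134 with vehicle in WT. The HT difference was -0.17 (SE 0.0674, adjusted p = 0.0892) and the WT difference 0.06 (SE 0.0674, adjusted p = 0.592). In HT Spred2 passed with the bulb level added as a covariate (-0.21, adjusted p = 0.0199), with the exon length slope (-0.19, adjusted p = 0.0473), without the 10 libraries low in olfactory bulb markers (-0.22, adjusted p = 0.0438), without HT fluoxetine male 3 (-0.20) and without HT vehicle female 2 (-0.20), in a range over alternatives of 0.0199 to 0.181.

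**Figure D2:**
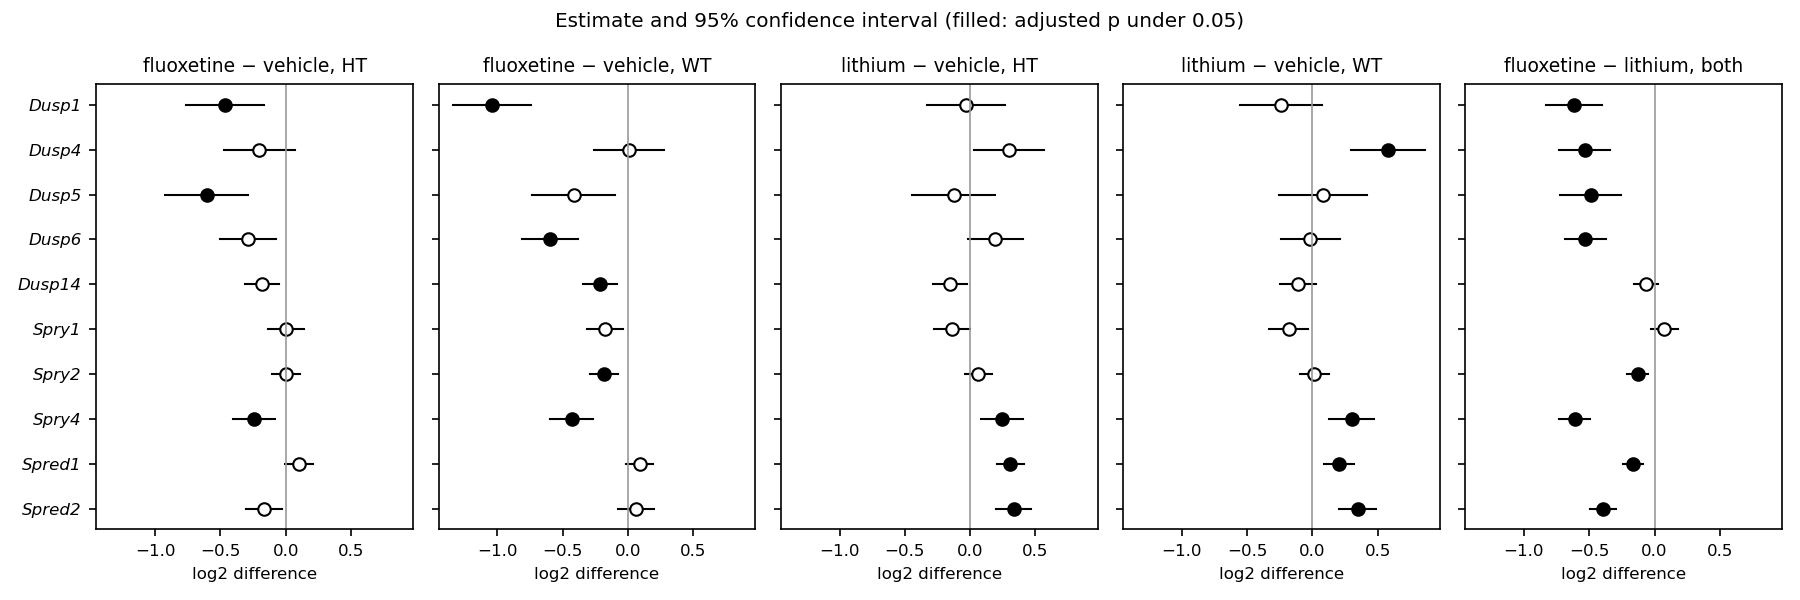
Log2 difference (horizontal axis) of each member (rows) with its 95% confidence interval in 5 comparisons (panels); filled circles passed at an adjusted p under 0.05 by limma and open circles did not. With fluoxetine the filled circles lie left of 0, with lithium right of 0, and Spry4 is filled in all 5 panels.

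Lithium, compared with the same vehicle libraries, gave values of the other sign for some of these genes. In HT mice 3 members rose and 0 fell: Spred1, Spred2 and Spry4. In WT mice 4 rose and 0 fell: Spred2, Dusp4, Spred1 and Spry4. Over all genes 7.46% rose and 6.61% fell in HT, and 1.95% rose and 1.39% fell in WT. The members' median log2 difference was 0.13 in HT and 0.05 in WT, and that of all genes -0.0015 in HT and -0.0013 in WT. The mitochondrial share was 7.66% ± 0.746 in HT lithium (SD, n = 10) and 7.33% ± 1.08 in WT lithium (SD, n = 8), beside the vehicle values above. Since both drugs are set against shared vehicle libraries, the fluoxetine and lithium values are not independent. Without the libraries low in olfactory bulb markers 2 members passed in HT and 2 in WT, and without those high in striatal markers 3 in HT and 3 in WT. With the exon length slope added 2 passed in HT and 4 in WT. The WT count was 1 when the 2 WT groups were fitted alone and 2 without WT lithium male 2, WT lithium male 3, WT vehicle female 4 or WT vehicle male 4. The HT count was 5 when the 2 HT groups were fitted alone and 5 with the bulb level added as a covariate. With the groups fitted alone, calls over all genes numbered 3049 in HT, against 2345, and 229 in WT, against 556. With the bulb level they numbered 3186 in HT.

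Spred1 rose in both genotypes. HT libraries ran from 5531 through a median of 6169 to 7306 with lithium, against 4618, 5004 and 5467 with vehicle. All 10 HT lithium libraries lay above the highest HT vehicle library. The HT difference was 0.31 (SE 0.0528, adjusted p = 7.62e-05), a fold of 1.24. WT libraries ran from 5267 through 6080 to 6678 with lithium, against 4446, 5470 and 5897 with vehicle. The WT groups overlapped, and the difference was 0.20 (SE 0.056, adjusted p = 0.0284). Without WT lithium female 2, male 2 or male 3, or WT vehicle female 4, male 2 or male 4, the adjusted p in WT lay between 0.0631 and 0.0709, and with the 2 WT groups fitted alone it was 0.12, in a range over alternatives of 0.00866 to 0.12.

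Spred2 rose as well. HT libraries ran from 3448 through 3748 to 4026 with lithium, against 2525, 3035 and 3666 with vehicle. WT libraries ran from 3255 through 4038 to 4337 with lithium, against 2266, 3134 and 3881 with vehicle. In each genotype the ranges overlapped at the top of vehicle and the bottom of lithium. The differences were 0.33 in HT (SE 0.0674, adjusted p = 0.000659) and 0.35 in WT (SE 0.0714, adjusted p = 0.00196), and both passed in each leave-one-out fit. Spred3, the third gene of that family and not among the 10, rose by 0.34 in HT (SE 0.0683, adjusted p = 0.000541) and by 0.29 in WT (SE 0.0724, adjusted p = 0.0151).

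Spry4 rose with lithium to 402 to 544 in HT (median 475), against 331 to 471 with vehicle (median 392), and to 365 to 555 in WT (median 514), against 317 to 493.2 with vehicle (median 418). WT lithium female 1, at 365, lay below the median of WT vehicle. The differences were 0.25 in HT (SE 0.0805, adjusted p = 0.0317) and 0.30 in WT (SE 0.0854, adjusted p = 0.0352). Both lost their call in several alternatives. The HT value was lost without any 1 of 8 libraries (HT lithium female 2 or 4 or male 1, 2 or 3, HT vehicle female 2 or male 1 or 2; adjusted p 0.0517 to 0.0836) and on the 54 libraries of the count tests (limma 0.211, edgeR 0.179, DESeq2 0.17), and had an adjusted p of 0.0529 with the exon length slope. The WT value was lost without any 1 of 11 (WT lithium female 3 or 4 or male 2, 3 or 4, WT vehicle female 1, 4 or 5 or male 1, 4 or 5; 0.0542 to 0.106), with the 2 WT groups alone (0.0691) and without the libraries high in striatal markers (0.058). Without the libraries low in olfactory bulb markers adjusted p was 0.136 in HT and 0.104 in WT, and over alternatives it ran from 0.0206 to 0.211 in HT and from 0.0108 to 0.104 in WT.

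Of the 5 phosphatase members, Dusp4 passed with lithium, and it did so in WT. In HT it ran from 180 through 266 to 315 with lithium, against 147, 219 and 292 with vehicle, a difference of 0.30 (SE 0.134) that missed the threshold (adjusted p = 0.125). In WT it ran from 179 through 276 to 322 with lithium, against 104, 194 and 271 with vehicle. WT lithium values lay mostly above the WT vehicle median, with 1 library at 179. Dusp4 rose by 0.58 in WT (SE 0.143, adjusted p = 0.0127), a fold of 1.49. In HT it passed with the bulb level added as a covariate (0.42, adjusted p = 0.00825) and with the 2 HT groups alone (0.30, adjusted p = 0.0493), in a range of 0.00825 to 0.409, and in WT it was lost with the 2 WT groups alone (0.0526) and without the libraries low in that level (0.46, adjusted p = 0.109), in a range of 0.0037 to 0.109.

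The other members did not pass with lithium. Dusp1 had medians of 708 with lithium and 838 with vehicle in HT (-0.03, SE 0.149, adjusted p = 0.903), and of 833 with lithium and 916 with vehicle in WT (-0.24, SE 0.158, adjusted p = 0.485). For Dusp6 the differences were 0.19 in HT (adjusted p = 0.218) and -0.02 in WT (adjusted p = 0.966), and for Dusp5 -0.13 in HT (adjusted p = 0.631) and 0.08 in WT (adjusted p = 0.861). Dusp14 differed by -0.16 in HT (SE 0.065, adjusted p = 0.0907) and passed there in 3 fits, with the bulb level as a covariate (-0.21, adjusted p = 0.0103), with the 2 HT groups alone (-0.16, adjusted p = 0.0386) and without HT vehicle male 2 (-0.19), in a range over alternatives of 0.0103 to 0.559. In WT Dusp14 differed by -0.11 (adjusted p = 0.459). Spry1 differed by -0.14 in HT (adjusted p = 0.163) and -0.18 in WT (adjusted p = 0.183), and Spry2 by 0.06 in HT (adjusted p = 0.441) and 0.02 in WT (adjusted p = 0.929).

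Set directly against lithium, with both genotypes averaged, fluoxetine libraries were lower in 8 of the 10 members and higher in 0, while 6.62% of all genes were lower and 5.71% higher. The 8 were Spry4, Spred2, Dusp6, Dusp1, Dusp4, Dusp5, Spred1 and Spry2, and Dusp14 and Spry1 did not pass. The members' median was -0.44 and that of all genes 0.00104. These are the drug-treated libraries of the comparisons above and no new ones, but no vehicle library enters the difference. The count was 8 in each leave-one-out fit, without the libraries low in olfactory bulb markers, without those high in striatal markers, with the exon length slope added and by edgeR and DESeq2.

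Spry4 had the smallest p of the members. Its counts ran from 250 through a median of 323 to 431 with fluoxetine (n = 20), against 365, 500 and 555 with lithium (n = 18). All 20 fluoxetine libraries lay below the lithium median and 18 of them below the lowest lithium library. The difference was -0.61 (SE 0.0587, adjusted p = 6.81e-11), a fold of 0.654. In the 4 groups of genotype and sex it was -0.40 in HT females, -0.58 in HT males, -0.68 in WT females and -0.79 in WT males.

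For Spred2, counts ran from 2338 through 2907 to 3690 with fluoxetine, against 3255, 3882 and 4337 with lithium. In HT the 10 fluoxetine libraries all lay below the 10 lithium libraries, and over both genotypes 15 of 20 lay below the lowest lithium library. The difference was -0.39 (SE 0.0491, adjusted p = 8.18e-08). Dusp6 ran from 1309 through 1577 to 2951 with fluoxetine, against 2012, 2463 and 2947 with lithium. There 16 of 20 fluoxetine libraries lay below the lowest lithium library, and the difference was -0.53 (SE 0.0774, adjusted p = 2.14e-06).

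Dusp1 ran from 328 through 479 to 1108 with fluoxetine, against 599, 811 and 996 with lithium. In it 15 of 20 fluoxetine libraries lay below the lowest lithium library, and the difference was -0.62 (SE 0.108, adjusted p = 5.25e-05). Dusp4 ran from 129 through 185 to 277 with fluoxetine, against 179, 266 and 322 with lithium. It differed by -0.53 (SE 0.098, adjusted p = 0.000106), with 18 of 20 fluoxetine libraries below the lithium median. Dusp5 differed by -0.49 (SE 0.116, adjusted p = 0.00282), Spred1 by -0.16 (SE 0.0385, adjusted p = 0.00283) and Spry2 by -0.13 (SE 0.0386, adjusted p = 0.0194). All 8 were lower with fluoxetine in each of the 4 groups of genotype and sex. Dusp14 differed by -0.07 (95% confidence interval -0.16 to 0.03, adjusted p = 0.389) and Spry1 by 0.08 (-0.03 to 0.18, adjusted p = 0.349).

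Genotype was compared within each treatment. With fluoxetine, with lithium and with vehicle 0 of 10 members passed between HT and WT by limma, while 0.612%, 0.06% and 0.048% of all genes did so in the same order of treatments. At an unadjusted p under 0.05 the members counted 1 with fluoxetine, 0 with lithium and 1 with vehicle. Of the 16669 genes tested, 2319, 1683 and 2035 lay under that value in the same order. By edgeR 0 members passed in each, and by DESeq2 1 with fluoxetine, 0 with lithium and 0 with vehicle. That member was Spred2, whose counts with fluoxetine ran from 2338 through 2620 to 3295 in HT, against 2855, 3059 and 3690 in WT. Its difference was -0.25 (SE 0.0674, adjusted p = 0.0621), and it passed by DESeq2 (0.0349) and with the bulb level added as a covariate (0.0236), in a range over alternatives of 0.0236 to 0.175. Without any 1 of 8 libraries (HT fluoxetine female 3, male 3 or male 4, HT vehicle female 2 or 3, WT fluoxetine male 1, WT vehicle female 2 or male 4) it also passed, adjusted p being 0.0333 at the smallest. With vehicle, Dusp6 differed by -0.28 (SE 0.106, adjusted p = 0.263) and Dusp1 by -0.30 (SE 0.149, adjusted p = 0.412).

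Whether the response to a drug differed between genotypes was tested by the interaction. For fluoxetine 0 of 10 members passed by limma, edgeR or DESeq2, against 0.042% of all genes by limma. An unadjusted p under 0.05 was found in 1858 of the 16669 genes tested and in 4 members: Dusp1 (0.58, SE 0.21, adjusted p = 0.296), Spry2 (0.19, SE 0.075, adjusted p = 0.35), Spred2 (-0.23, SE 0.0953, adjusted p = 0.368) and Dusp6 (0.31, SE 0.15, adjusted p = 0.444). A positive value means that the fluoxetine difference was less negative in HT. The smaller fall of Dusp1 in HT was therefore not shown to differ from that in WT. For lithium 0 members and 0% of all genes passed by limma, and 0 members did so by edgeR and DESeq2. An unadjusted p under 0.05 was found in 0 members and in 2320 of the 16669 genes.

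Between males and females 0 of 10 members passed by limma, edgeR and DESeq2, against 0.132% of all genes by limma. An unadjusted p under 0.05 was found in 0 members and in 1376 of the 16669 genes. The differences ran from -0.15 for Dusp4 (SE 0.0792, adjusted p = 0.61) to 0.01 for Spred2. The sex by fluoxetine interaction passed in 0 members and 0% of all genes. There 1 member, Dusp14 (-0.20, adjusted p = 0.978), and 727 of the 16669 genes had an unadjusted p under 0.05. The sex by lithium interaction passed in 0 members and 0.018% of all genes, with 1 member, Spry4 (0.35, SE 0.117, adjusted p = 0.42), and 1133 of the 16669 genes under that value. By edgeR and DESeq2 0 members passed in either sex interaction. Spry4 differed with lithium by 0.10 in HT females, 0.39 in HT males, 0.10 in WT females and 0.50 in WT males.

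Some members moved with the amount of olfactory bulb in the dissection. Among the 48 libraries above the gap in the bulb level, and after the mean of each of the 12 groups of genotype, treatment and sex was taken out, Dusp5 rose with that level (Pearson r = 0.72, Spearman rho = 0.74, adjusted permutation p = 3.33e-05 and 5e-05) and so did Dusp4 (r = 0.68, rho = 0.68, adjusted permutation p = 3.33e-05 and 5e-05). Spry2 fell with it (r = -0.60, rho = -0.51, adjusted permutation p = 3.33e-05 and 0.000733). These r were 0.67, 0.69 and -0.64 without the 2 libraries farthest from the median level, and unadjusted p = 1e-05 is the smallest that 100000 resamples can give. Dusp6 (r = -0.44, rho = -0.28, adjusted permutation p = 0.00475 and 0.13) and Dusp14 (r = -0.41, rho = -0.26, adjusted permutation p = 0.00862 and 0.158) passed by r alone, and the other 5 of 10 relations did not pass. The share of all genes that would pass with the bulb level was not computed, so these relations are not read as particular to the members. In the 10 libraries below the gap Dusp5 ran from 121 through a median of 218 to 301, against 165, 302 and 469 in the other 48.

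**Figure D3:**
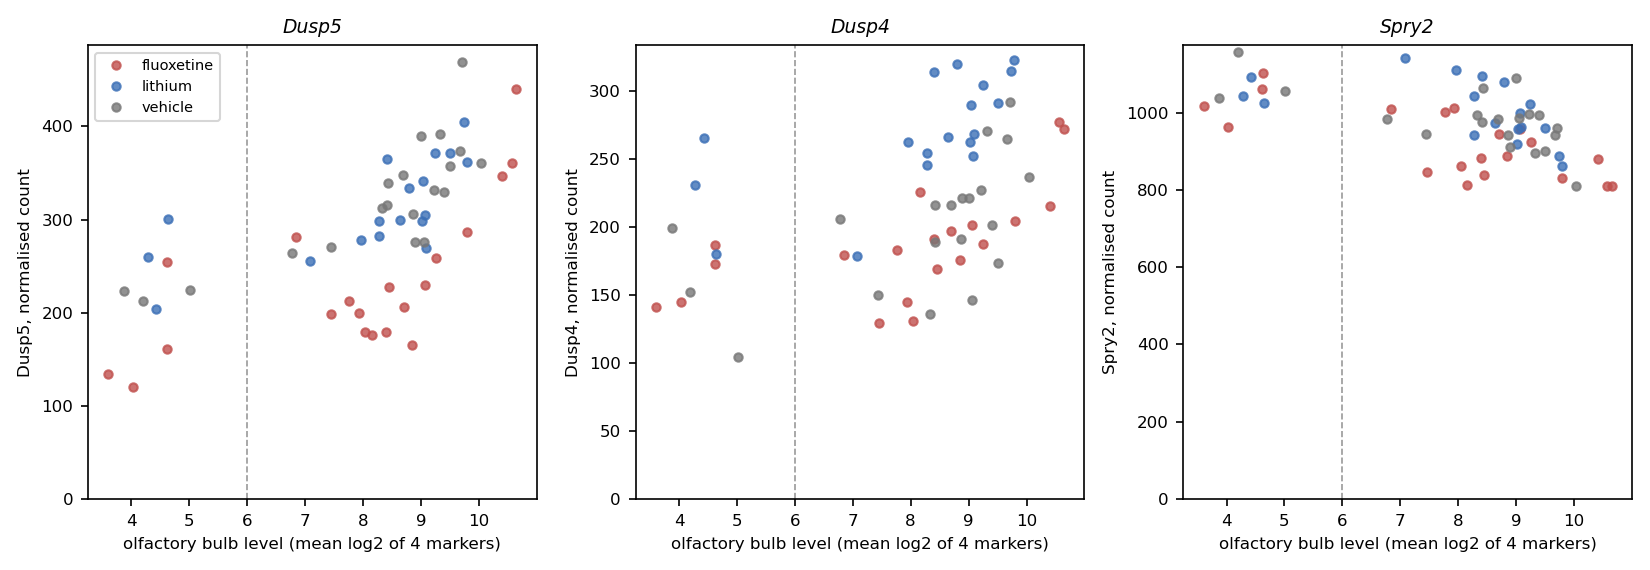
Normalised count of Dusp5, Dusp4 and Spry2 (vertical axes, starting at 0) against the mean log2 level of 4 olfactory bulb markers (horizontal axis) in 58 libraries, coloured by treatment; the dashed line at 6 marks the gap. Dusp5 and Dusp4 are higher and Spry2 is lower towards the right, and at a given level most fluoxetine libraries of Dusp5 lie below the others.

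Pairs of members were also compared within groups. The share of all gene pairs that would pass was not computed. The counts below therefore describe these pairs and are not read as a trait of the members. The permutation p did not allow for the group means taken out and are too small. Of their 45 pairs 20 passed over 58 libraries (15 positive and 5 negative), and 14 passed in the 48 libraries above the gap (12 positive and 2 negative), all of them among the 20 and with the same sign. In the 48 libraries Dusp6 and Spry2 had the highest value (r = 0.70, rho = 0.69, adjusted permutation p = 0.00015 for each; r = 0.68 without the 2 libraries farthest from the median of Dusp6). Dusp1 and Dusp6 followed (r = 0.69, rho = 0.69, adjusted permutation p = 0.00015 for each, 0.60 without 2), then Dusp4 and Dusp5 (r = 0.67, rho = 0.66, adjusted permutation p = 0.00015 for each, 0.66 without 2). Spry4 varied with Dusp6 (r = 0.52, rho = 0.50, adjusted permutation p = 0.00161 and 0.00276, 0.49 without 2) and with Dusp1 (r = 0.52, rho = 0.56, adjusted permutation p = 0.00161 and 0.0009, 0.57 without 2), and Spred1 with Spred2 (r = 0.47, rho = 0.48, adjusted permutation p = 0.00411 and 0.00382, 0.44 without 2). Pairs of opposite sign joined Dusp4 with Dusp14 (r = -0.36, adjusted permutation p = 0.041) and Dusp4 with Spry2 (r = -0.35, adjusted permutation p = 0.044), neither of which passed by rho (-0.26 with p = 0.161 and -0.30 with p = 0.141, adjusted permutation p). Over all 58 libraries r was -0.45 for Dusp4 with Dusp14, -0.39 for Dusp4 with Spry2 and -0.11 for Dusp5 with Dusp6 (0.04 in the 48). With the bulb level taken out over the same 58 libraries r was -0.23, 0.01 and 0.52 in that order.

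**Figure D4:**
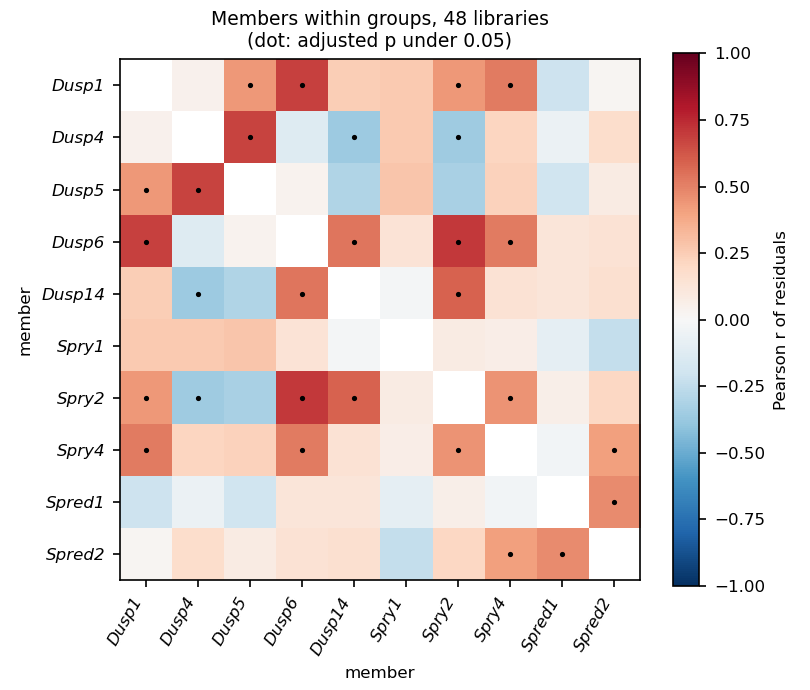
Pearson r between each pair of members (rows and columns) over 48 libraries, after the mean of each group of genotype, treatment and sex was taken out; red is positive, blue negative, and dots mark an adjusted permutation p under 0.05. Dusp1, Dusp6, Spry2 and Spry4 form positive pairs with each other, from 0.43 to 0.70, and Dusp4 pairs with Dusp5.

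The genes outside the 10 with the pattern most like that of a member were named for Dusp1, Dusp6 and Spry4, by the highest Pearson r of log2 values over all 58 libraries, treatment and dissection included. For Dusp1 they were Arc (r = 0.94, rho = 0.93), Nr4a1 (r = 0.94, rho = 0.92) and Junb (r = 0.92, rho = 0.91), all immediate early genes. For Dusp6 they were Ier5 (r = 0.88, rho = 0.81), Bhlhe40 (r = 0.88, rho = 0.84) and Plk3 (r = 0.87, rho = 0.85). For Spry4 they were Jade2 (r = 0.81, rho = 0.86), Rasl11a (r = 0.80, rho = 0.82) and Stk40 (r = 0.79, rho = 0.76). Each r is a description over libraries that share the treatments, picked as the highest of all genes tested, and is given with no p.

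**Figure D5:**
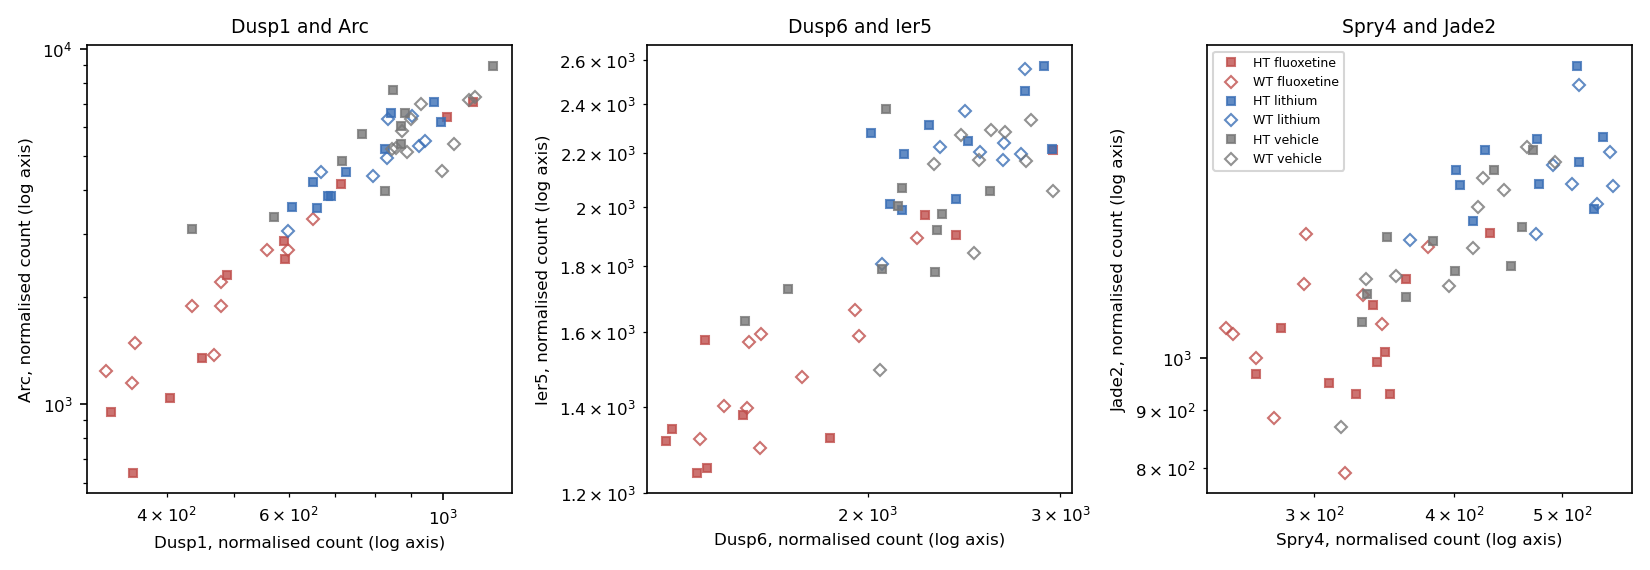
Normalised counts of Dusp1 and Arc, Dusp6 and Ier5, and Spry4 and Jade2 (log axes) in 58 libraries; colours are treatments, filled squares HT and open diamonds WT. Fluoxetine libraries lie mostly at the lower left and lithium and vehicle libraries at the upper right of each panel, at r = 0.94, 0.88 and 0.81.

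The rest of the pathway was read from lists chosen with earlier results known. Of 22 transcripts that were tested and that ERK signalling is known to induce, 14 fell with fluoxetine in HT, for example Fosl2 (-0.62), Junb (-0.89), Nr4a1 (-0.71) and Arc (-1.26), and 15 fell in WT, for example Arc (-1.64) and Egr4 (-0.96), with 0 risen in each. Over all genes 5.96% fell with fluoxetine in HT and 3.41% in WT, and 6.61% fell with lithium in HT and 1.39% in WT. Between the drugs 6.62% of all genes were lower with fluoxetine. With lithium 4 of the 22 fell in HT (Myc -0.32, Fosb -0.56, Egr4 -0.45 and Ier2 -0.46) and 0 in WT, and 15 were lower with fluoxetine than with lithium, among which Ier5 (-0.55) had the smallest p and Arc differed by -1.25. On the 54 libraries of the count tests this number was 10 by limma, 8 by edgeR and 9 by DESeq2, and it was 10 with the compared groups fitted alone. With the exon length slope 13 fell with fluoxetine in HT and 11 in WT, without the low-bulb libraries 12 in HT and 14 in WT, and without those high in striatal markers 12 in HT and 13 in WT. With the compared groups fitted alone the number that fell with lithium was 9 in HT and 5 in WT, while 9 fell with fluoxetine in HT and 14 in WT. The medians of the list were -0.41 with fluoxetine and -0.18 with lithium in HT, and -0.46 with fluoxetine and -0.08 with lithium in WT. With lithium 0 of these 22 transcripts rose in either genotype, against 7.46% of all genes in HT and 1.95% in WT. At such shares a list of 22 can hold 0, so nothing is read from this. In other fits 1 rose in HT with the compared groups alone or the slope, and 1 in WT after quantile normalisation or with the bulb level added.

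For the lists that follow, the shares over all genes are those given above: with fluoxetine 6.84% rose and 5.96% fell in HT and 3.98% rose and 3.41% fell in WT, and with lithium 7.46% rose and 6.61% fell in HT and 1.95% rose and 1.39% fell in WT. A few genes of a list of this size can pass at such shares. Some counts below lie well above them, and the following are examples. In HT 5 of 10 glucocorticoid-induced transcripts and 4 of 13 other Sprouty-family and receptor feedback genes rose with lithium. There also 5 of 8 oligodendrocyte and 3 of 8 microglia markers rose with fluoxetine, and 5 of 8 endothelial and mural markers fell with lithium. In WT 4 of 10 glucocorticoid-induced transcripts rose with lithium and 3 of 10 with fluoxetine. The counts were not tested, and nothing is read from them. Among the 17 other dual-specificity phosphatase genes tested, 3 rose (Styx 0.31, Dusp11 0.19 and Dusp19 0.16) and 0 fell with fluoxetine in HT, and 1 rose (Dusp11 0.19) and 1 fell (Dusp8 -0.12) in WT. With lithium 1 rose (Dusp19 0.23) and 2 fell (Dusp28 -0.20 and Dusp26 -0.15) in HT, and 0 passed in WT. Of 13 other Sprouty-family and receptor feedback genes tested, fluoxetine lowered Errfi1 in HT (-0.22), an inhibitor of the EGF receptor, and in WT Socs3 fell (-0.43) and Nf1, the gene of neurofibromin, rose (0.17). With lithium 4 of the 13 rose and 2 fell in HT, among them Spred3, Socs2 (0.20), Cbl (0.20) and Il17rd (-0.27), and 1 rose (Spred3) and 1 fell (Cblb -0.21) in WT.

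Genes of the ERK cascade itself were also listed. Of 27 such genes, 1 rose with fluoxetine in HT (Nras 0.18) and 1 in WT (Ksr1 0.31, a scaffold of the cascade), with 0 fallen. With lithium 3 rose and 2 fell in HT, where the ERK1 gene Mapk3 (-0.25, adjusted p = 0.000512) and the kinase gene Rps6ka1 (-0.32) fell and Rps6ka3 (0.22) and Sos1 (0.18) rose, and 1 rose in WT (Ksr1 0.27). Of 16 genes of the JNK and p38 cascades tested, 1 rose and 1 fell with fluoxetine in HT, 1 rose and 2 fell in WT, 1 rose with lithium in HT (Map2k6 0.26) and 0 passed in WT. Between the drugs Map2k3, a kinase of p38, was lower with fluoxetine (-0.35, adjusted p = 1.04e-06). Of 21 growth factor receptors and ligands, 2 rose with fluoxetine in HT (Fgf2 0.29 and Fgfr3 0.18) and 0 passed in WT, while with lithium 2 fell in HT (Pdgfrb -0.29 and Erbb2 -0.30) and 1 rose in WT (Fgfr3 0.22).

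Transcription factors that act on the elements shown above were also listed. Of 12 genes of ternary complex and CREB factors, Srf, the gene of serum response factor, fell with fluoxetine in HT (-0.31) and in WT (-0.22), where Elk3 (-0.32) also fell and Mrtfa (0.17) and Creb1 (0.13) rose. With lithium 3 rose in HT (Elk1 0.14, Creb1 0.16 and Crem 0.18) and 1 in WT (Mrtfa 0.18). Dusp1 is also known as a glucocorticoid target. Of 10 glucocorticoid-induced transcripts, 1 rose and 3 fell with fluoxetine in HT and 3 rose and 2 fell in WT. With lithium 5 rose in HT and 4 in WT with 0 fallen, for example Zbtb16 (0.82 in HT, 0.94 in WT) and Tsc22d3 (0.52 in HT, 0.53 in WT). Dusp1 did not pass with lithium in either genotype. Between the drugs 6 of these 10 transcripts were lower with fluoxetine and 0 higher, against 6.62% and 5.71% of all genes, and Dusp1 was lower too. The part of glucocorticoid signalling in the Dusp1 values was not tested.

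Cell type markers moved with some of these comparisons, and all markers listed were above 0 in every library. With fluoxetine in HT 5 of 8 oligodendrocyte markers rose, their summed normalised count being 81136 to 195410 with fluoxetine and 61653 to 134850 with vehicle, and 3 of 8 microglia markers rose (9197 to 11985 with fluoxetine, 8759 to 10684 with vehicle), as did 2 of 8 astrocyte markers (Gjb6 0.38 and S100b 0.17). In WT 0 of 8 oligodendrocyte and 0 of 8 microglia markers passed, and 1 of 8 astrocyte markers fell. With lithium in HT 5 of 8 endothelial and mural markers fell (9361 to 11090 with lithium, 9450 to 12701 with vehicle), and 0 of 8 passed in WT. Also, 1 of 8 endothelial and mural markers rose with fluoxetine in HT (Rgs5 0.21) and 1 fell in WT, and 1 of 8 astrocyte markers rose with lithium in HT (Gjb6 0.50) and 1 in WT. Of 8 cortical excitatory neuron markers 1 fell with fluoxetine in HT (Emx1 -0.25), 1 with fluoxetine in WT (Rorb -0.18) and 1 with lithium in WT (Rorb -0.26). Between the drugs, where 8 of 10 members were lower with fluoxetine, 2 of 8 oligodendrocyte markers, 2 of 8 microglia markers (P2ry12 0.24 and Cx3cr1 0.15) and 2 of 8 endothelial and mural markers (Kdr 0.39 and Pdgfrb 0.15) were higher with fluoxetine, 2 of 8 astrocyte markers (Aldoc -0.13 and Gjb6 -0.17) were lower, and 0 of 8 cortical excitatory neuron markers passed. The 6 olfactory bulb markers did not pass in any of these, with sums of 269 to 12641 for HT fluoxetine, 239 to 6498 for HT lithium, 1573 to 8291 for HT vehicle, 198 to 11980 for WT fluoxetine, 1187 to 7199 for WT lithium and 289 to 6028 for WT vehicle. The 8 striatal markers did not pass either, with sums of 4687 to 11640 in HT fluoxetine and 4752 to 7684 in WT vehicle, the groups of the 2 libraries named above. The part of glial and vascular RNA in the members' values was not tested.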

How the data were processed

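Prefrontal cortex RNA of 58 mice was sequenced from stranded mRNA libraries, per the labels' protocols. The authors deposited 1 table of normalised signal, made with Salmon 0.11.2, R 3.6.0 and DESeq2 1.19.11 on GRCm38 per the submitters' processing notes; the annotation release is not given in the sources used here. In each library every value was a whole multiple (100% within 0.01) of 1 step, the value of 1 read, which was 0.75 to 1.27, so reads could be recovered: 23.5 to 38.6 M per library, median 27.6 M. Count tests used 54 libraries, since in 4 the step lay too close to 1 to be told from raw counts.

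Groups came from the labels. Symbols and positions came from GENCODE M21 (18077 IDs matched, 11 did not). limma 3.58.1 (R 4.3.3, with a variance trend) was fitted to log2(value + 1), with 1 coefficient for each of 12 groups of genotype, treatment and sex, over 16669 genes with a mean of at least 10. Drug and genotype comparisons averaged the sexes. Genes with a Benjamini-Hochberg adjusted p (over all genes tested) under 0.05 passed, and the script was checked on simulated data. Correlations among members used residuals from the group means and 100000 permutations (two-sided), which did not allow for the 12 means taken out and so gave p that are too small. The members and lists were chosen with earlier results of these data known. Named genes were the members, up to 4 genes per list with the smallest p in a comparison, and the 3 genes most like Dusp1, Dusp6 and Spry4. Alternatives were quantile normalisation, dropping the variance trend or the filter, raising the filter to 100, adding 0.5 or 10 in place of 1, fitting only the groups of a comparison, a block for the replicate number, a covariate for the olfactory bulb level, edgeR 4.0.16 and DESeq2 1.42.0 on recovered reads, limma on the same 54 libraries, leaving out each library, and, chosen after seeing the data, leaving out 2 sets of libraries and a covariate for each library's slope on exon length. The ratio of replicate differences to sampling noise was 2.94 to 57.0 over 112 pairs, so no libraries were merged. Protein sequences were not analysed here.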

Additional observations from a re-analysis of the deposited data

Results flagged for a closer look

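Each member was screened in the 6 groups of genotype and treatment for a library that stood apart from its group by Dixon's ratio, and 5 of 60 such groups held one; chance gives about 1 in 20. HT fluoxetine male 4 was the highest of its group for Dusp4 (271.6 normalised counts, next 204.6) and for Dusp5 (440.2, next 286.6), and its olfactory bulb level, 10.6, was the highest of all 58 libraries. HT vehicle female 1 was highest for Dusp5 (469.4, next 373.6) at a bulb level of 9.71. HT vehicle male 2 was lowest for Spry2 (809.8, next 912.1) at a bulb level of 10.04, and WT lithium female 1 lowest for Spry4 (365.4, next 474.2) at 9.79. The part of the bulb level in these values was not tested.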

How the results depend on the processing

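Of the 23 drug comparisons in which a member passed, 16 kept their call in every fit that left out 1 library. The number of members that passed with fluoxetine in HT (3) was 6 with the bulb level added as a covariate, 6 without the 10 libraries low in it, 1 without the 2 high in striatal markers and 1 to 6 without 1 library; in WT (5) it was 3 with the exon length slope added and 3 to 6 without 1 library. With lithium in HT (3) it was 5 with the groups alone, 5 with the bulb covariate and 2 to 3 without 1 library; in WT (4) it was 1 with the groups alone, 2 without the low-bulb libraries and 2 to 4 without 1 library. Between HT and WT with fluoxetine (0) it was 1 with the bulb covariate, 1 by DESeq2 and 0 to 1 without 1 library. The cause of these shifts was not tested. Fluoxetine against lithium gave 8 throughout. Correlated pairs numbered 20, and 17 after quantile normalisation.

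No value that changed sign passed. With the bulb covariate and without the low-bulb libraries, in that order, Dusp4 with fluoxetine in WT was -0.0724 and -0.0678, Spry2 with fluoxetine in HT -0.0629 and -0.0575, and with lithium in WT Dusp5 -0.0746 and -0.112 and Dusp6 0.0603 and 0.0273. Dusp5 with lithium in HT was 0.0532 with the bulb covariate. With the exon length slope Dusp4 with fluoxetine in WT was -0.116, Dusp6 with lithium in WT 0.0343 and Dusp1 with lithium in HT 0.0359. Spry1 with fluoxetine in HT was, on the 54 libraries of the count tests, -0.0272 by limma, -0.0294 by edgeR and -0.0358 by DESeq2. Leaving out 1 library, the ranges were -0.0702 to 0.07 for Dusp4 with fluoxetine in WT, -0.0342 to 0.035 for Spry1 and -0.0238 to 0.0307 for Spry2 with fluoxetine in HT, -0.0534 to 0.0237 for Dusp6 and -0.0122 to 0.0601 for Spry2 with lithium in WT, and -0.112 to 0.0178 for Dusp1 with lithium in HT.

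With the replicate number as a block 3 members passed with fluoxetine in HT, 5 in WT, 3 with lithium in HT, 4 in WT and 8 between the drugs, as without it. The numbers do not pair the samples: same-numbered libraries of different groups correlated at -0.00611 on average, others at 0.00141, and 11 of 58 libraries were closest to their own number.

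Over all genes, calls with fluoxetine in HT numbered 2134, but 4088 with the bulb covariate, 1353 to 2362 without 1 library and 789 (limma), 817 (edgeR) and 1003 (DESeq2) on 54 libraries; with lithium in HT 2345, but 1061, 1074 and 1257 on those. In WT fluoxetine gave 1232, but 273 with the exon length slope, 679 without the low-bulb libraries and 668 to 1629 without 1 library, and lithium 556, but 229 with the groups alone, 310 without the low-bulb libraries and 272 to 771 without 1 library. Fluoxetine against lithium gave 2055, at most 3136 and at least 1385 without 1 library. HT against WT with fluoxetine gave 102, but 225 with the bulb covariate, 164 by DESeq2, 36 after quantile normalisation, 14 with the slope, 7 with the groups alone, 2 without the low-bulb libraries and 11 to 172 without 1 library. Over all alternatives and fits without 1 library, HT against WT gave 0 to 29 with vehicle (8 as reported) and 2 to 211 with lithium (10), the genotype interactions 0 to 46 with fluoxetine (7) and 0 to 37 with lithium (0), the sexes 17 to 43 (22) and sex by lithium 0 to 52 (3). With fluoxetine the standard errors were 0.0528 to 0.106 for the 5 members with the higher mean counts (969 and more) and 0.0691 to 0.159 for the 5 with the lower (732 and less).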
